A study of Mus musculus with 8 samples.

Results

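The 10 genes described here encode the enzymes that build, lengthen and desaturate fatty acids, together with the transcription factor gene Srebf1 and the acyl-CoA carrier gene Dbi. They were chosen by name (Srebf1, Acly, Acaca, Fasn, Scd1, Scd2, Elovl6, Fads1, Fads2 and Dbi), with earlier results of these data known. All 10 were found among the 53242 genes of the deposited count and TPM tables. RNA had been sequenced from splenic B cells of C57BL/6 mice aged 8 to 12 weeks. The control mice were Eif4a1+/+ CD23-cre and the 4A1 KO mice were Eif4a1fl/fl CD23-cre, so both genotypes carried the Cre transgene, which is driven by the regulatory sequences of the B cell gene Fcer2a (CD23). All cells had spent 24 h in culture on irradiated CD40LB cells in medium with 40 ng/ml IL4. CD40LB cells are fibroblast feeder cells that provide CD40 ligand and the survival factor BAFF, and they had been depleted at the end with antibody and beads. There were 4 libraries per genotype, of which numbers 1 and 3 came from males, 2 and 4 from females, 1 and 2 from batch A, and 3 and 4 from batch B. Replicate 1 of both genotypes had been removed from differential expression for reduced viability, so tests use replicates 2 to 4 (n = 3 per genotype) unless all 8 libraries are named.

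In lipid synthesis, ATP citrate lyase (Acly) cleaves citrate exported from mitochondria to acetyl-CoA, acetyl-CoA carboxylase (Acaca) turns acetyl-CoA into malonyl-CoA, and fatty acid synthase (Fasn) assembles both into palmitate. The elongase Elovl6 extends palmitate to stearate, the stearoyl-CoA desaturases Scd1 and Scd2 put the first double bond into saturated chains, and the desaturases Fads1 and Fads2 add double bonds to polyunsaturated chains. Srebf1 encodes SREBP1, a membrane-bound factor that is cut and moves to the nucleus to activate many of these genes, and B cells that have been activated through CD40 and IL4 make new membrane from such lipids as they grow and divide.

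Of the 10 genes, 9 were lower in 4A1 KO than in control B cells by the call used throughout, an adjusted p under 0.05 with an absolute log2 fold change above 0.5 on the counts, and none was higher. The same call found 13.7% of all 14218 genes tested lower and 11.6% higher. The median log2 fold change of the 10 genes was -1.08, beside 0.01 over all genes tested. The largest falls were those of Fads2, Scd2 and Elovl6, with log2 fold changes of -2.98, -2.35 and -1.76, whereas the mRNA of the factor gene Srebf1 differed by -0.21 and did not reach the size threshold. In CPM, the counts of a gene relative to the total of its library, and over all 8 libraries, every 4A1 KO library lay below every control library for 9 of the 10 genes, which was the case for 19.8% of all 14211 genes tested. Because RNA was measured in bulk, fewer cells that express a gene and less of its RNA per cell cannot be told apart. All values are relative to the RNA of their library, and the amount of RNA per cell was not measured.

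The libraries held between 38488341 and 43210858 counts on genes in replicates 2 to 4, and 39890141 (control) and 31727557 (4A1 KO) in replicate 1. The targeted gene Eif4a1 was at 747 to 936 CPM in control and 557 to 691 in 4A1 KO (log2 fold change -0.44, SE 0.050, adjusted p = 1.15e-04). The loxP sites flank internal exons, and the count covers the rest of the transcript too, so it does not measure the share of cells with a deletion. Of the 10 B cell markers, 3 were called lower (Cd79b, Cd22 and Cd79a), 0 higher and 7 neither, with a median log2 fold change of -0.001. Over all genes tested, 13.7% were lower and 11.6% higher. Among those not called, Ms4a1 (CD20) was at 521 to 652 CPM in control and 586 to 645 in 4A1 KO, and Pax5 at 1157 to 1424 CPM in control and 879 to 1235 in 4A1 KO. The 20 fibroblast markers summed to 32.1 to 67.8 CPM in control and 30.3 to 43.7 in 4A1 KO, with Postn and Lum at 0 in every library, Col3a1 called lower and Fn1 and Tagln called higher. Of this sum, Thy1 made up 5.09 to 31.6 CPM in control and 4.68 to 20.8 in 4A1 KO. T cell markers summed to 15.1 to 25.0 CPM in control and 10.3 to 19.6 in 4A1 KO. Most of this was Lck, at 14.1 to 23.3 CPM in control and 9.88 to 18.7 in 4A1 KO (log2 fold change -0.40, adjusted p = 0.00518, not called). Cd3g was at 0, and Cd3e, Cd3d, Cd4 and Cd8a had at most 4 counts in any library. Adipocyte markers summed to 5.48 to 8.40 CPM in control and 4.06 to 6.27 in 4A1 KO, with Adipoq at -0.48 (adjusted p = 0.00789, not called) and Plin1, Cidec, Lep, Pparg and Cfd at 0. Myeloid markers summed to 8.89 to 14.9 in control and 14.5 to 17.0 in 4A1 KO, with Adgre1 called higher. The part of these other cells in the results below was not tested.

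The promoters of Fads2, Fasn and Acly are shown because these genes stand for the largest fall and for the most abundant mRNAs of the group. The sequences are RefSeq windows of 300 bases on GRCm38.p6, from 250 bases before the transcription start to 50 after it, read 5′ to 3′ on the gene's strand. The Fads2 window is chr19:10101454-10101753, the Fasn window chr11:120824498-120824797 and the Acly window chr11:100527951-100528250, all on the minus strand. Capitals mark the letters CCAAT (the CCAAT box) and GGGCGG (the GC box), or their reverse complements.
Fads2 promoter: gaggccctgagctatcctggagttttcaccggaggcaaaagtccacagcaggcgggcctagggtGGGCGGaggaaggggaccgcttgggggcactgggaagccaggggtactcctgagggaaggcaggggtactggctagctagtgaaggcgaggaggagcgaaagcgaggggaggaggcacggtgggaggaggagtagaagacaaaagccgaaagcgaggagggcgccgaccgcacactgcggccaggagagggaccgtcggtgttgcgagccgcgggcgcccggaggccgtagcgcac
Fasn promoter: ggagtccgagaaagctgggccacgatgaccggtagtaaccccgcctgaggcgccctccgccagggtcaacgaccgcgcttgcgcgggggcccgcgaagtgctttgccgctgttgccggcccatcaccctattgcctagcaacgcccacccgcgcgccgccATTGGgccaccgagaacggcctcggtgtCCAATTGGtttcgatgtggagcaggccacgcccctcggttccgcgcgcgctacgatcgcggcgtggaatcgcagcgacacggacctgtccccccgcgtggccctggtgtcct
Acly promoter: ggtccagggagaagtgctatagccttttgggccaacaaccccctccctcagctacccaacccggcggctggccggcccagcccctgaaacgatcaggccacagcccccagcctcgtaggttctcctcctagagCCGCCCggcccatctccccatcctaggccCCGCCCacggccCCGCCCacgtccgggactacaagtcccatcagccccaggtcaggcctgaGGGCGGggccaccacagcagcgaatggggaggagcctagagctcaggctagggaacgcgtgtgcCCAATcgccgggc
The Fads2 window held 1 GC box, the Fasn window 3 CCAAT boxes, of which 2 overlap, and the Acly window 4 GC boxes and 1 CCAAT box. The windows of 7 of the 10 genes were matched by symbol (Srebf1 with 3 windows and Dbi with 2). CCAAT was present for 4 of these 7 genes, and for 41.1% of all 27025 genes with such windows (37.4% of all 32851 windows). GGGCGG was present for 3 of 7 genes and for 38.2% of all genes (35.7% of all windows). The core of the sterol regulatory element, searched as TCACNCCAC, and the E-box CACGTG, both sequences that SREBP proteins can bind, were in none of the windows of these 7 genes and were present for 1.44% and 8.09% of all genes (1.24% and 7.15% of all windows). Of the 14 sterol synthesis genes with such windows, 1 held TCACNCCAC and 3 held CACGTG. All motifs were searched on both strands. These are matches of letters in a short window and not binding sites.

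Srebf1 mRNA was at 73.3, 66.7, 67.9 and 64.6 TPM in control libraries 1 to 4 and at 64.1, 55.3, 59.7 and 58.9 TPM in 4A1 KO libraries 1 to 4. The 2 groups of TPM values lay side by side without overlapping, but in CPM 4A1 KO library 1, at 136, lay above control library 4, at 131. Its log2 fold change on the counts was -0.21 (SE 0.051, 95% interval -0.32 to -0.09, adjusted p = 0.00815), and the interval lay within the size threshold of 0.5. The isoforms SREBP1a and SREBP1c were merged in the counts and were not separated here.

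Acly, the source of cytosolic acetyl-CoA, had the highest TPM of the 10 genes, at 332, 368, 331 and 316 in control libraries 1 to 4 and 172, 207, 189 and 210.4 in 4A1 KO libraries 1 to 4. All 4A1 KO values were lower than all control values, and the fall on the counts was by 0.75 on the log2 scale (SE 0.059, adjusted p = 2.45e-05). Acaca, whose product commits acetyl-CoA to fatty acid synthesis, was at 31.1, 35.6, 34.9 and 39.2 TPM in control and at 15.6, 19.5, 24.8 and 25.7 TPM in 4A1 KO. The batch A libraries were the lower 2 in 4A1 KO, and the groups did not overlap. Acaca fell by 0.65 on the log2 scale (SE 0.070, adjusted p = 9.28e-05), the smallest of the 9 called falls, with a 95% interval from -0.81 to -0.50 that reaches the size threshold.

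Reads of Acaca are uncertain for another reason. Of the 9464 stretches of 50 bases in its transcript, 65.3% have an exact copy elsewhere in GRCm39, nearly all at Gm5182 on chromosome 12. Gm5182 itself had 1100 to 1405 counts in control and 479 to 1094 in 4A1 KO (log2 fold change -0.41, SE 0.071, adjusted p = 0.00133). With the counts of both summed, a setting chosen after seeing the data, the fall was by 0.61 on the log2 scale (SE 0.064, adjusted p = 8.13e-05). The share of copied stretches was 7.58% for Elovl6, 4.27% for Dbi, 4.12% for Scd1, 3.06% for Fads1 and 2.89% for Scd2, and 0 for Srebf1, Acly, Fasn and Fads2.

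Fasn, the multi-domain synthase, was at 251, 261, 294 and 265 TPM in control libraries and at 113, 119.7, 149 and 162 TPM in 4A1 KO libraries 1 to 4. No 4A1 KO value reached the control range, and Fasn fell by 0.94 on the log2 scale (SE 0.073, adjusted p = 2.26e-05), to 46.0%, 49.7% and 61.2% of the same-numbered control in CPM for replicates 2, 3 and 4.

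Elovl6, the elongase that works on the product of Fasn, was the least abundant of the 10 mRNAs, at 7.47, 7.95, 9.02 and 8.42 TPM in control and 1.75, 2.39, 2.50 and 3.72 TPM in 4A1 KO. The highest 4A1 KO library, number 4, was below the lowest control library, number 1. On the counts, of which the 4A1 KO libraries held 152 to 370, Elovl6 fell by 1.76 on the log2 scale (SE 0.110, adjusted p = 1.36e-05), which is 3.38-fold. On log2(TPM + 1), a scale that understates the change of low genes, it fell by 1.31 (SE 0.126, limma adjusted p = 9.07e-04).

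The stearoyl-CoA desaturase genes Scd1 and Scd2 lie 87.6 kb apart on chromosome 19 of GRCm39, with Scd4 between them. Scd1 was at 179, 208, 186 and 181 TPM in control libraries 1 to 4 and at 102, 132, 90.2 and 109 TPM in 4A1 KO libraries 1 to 4. Scd2 was at 71.1, 94.5, 94.9 and 101 TPM in control and at 12.5, 18.9, 13.3 and 26.7 TPM in 4A1 KO. Neither gene's groups overlapped, and the Scd2 values of 4A1 KO were further from those of control. Scd1 fell by 0.83 on the log2 scale (SE 0.072, adjusted p = 3.49e-05), or 1.78-fold, and Scd2 fell by 2.35 (SE 0.144, adjusted p = 1.21e-05), or 5.11-fold. Scd1 made up a larger share of the summed TPM of both genes in 4A1 KO, 86.0% ± 3.87, than in control, 67.7% ± 3.20 (SD, n = 4, all 8 libraries). The shares of Scd1 were 71.5%, 68.7%, 66.2% and 64.1% in control libraries and 89.0%, 87.5%, 87.2% and 80.3% in 4A1 KO libraries, so that they did not overlap. The exact permutation test of the shares, two-sided, gave p = 0.0286 (adjusted p = 0.0286 over the 2 gene pairs tested), the smallest that 4 libraries against 4 allow. This test ignores the pairing and includes replicate 1. Within the 4 pairs the exact permutation p was 0.125, and with replicates 2 to 4 it was 0.1, in both cases the smallest possible and not under 0.05. The neighbours Scd3 and Scd4 were near the limit of detection, Scd3 at up to 3 counts and Scd4 at a log2 fold change of -1.72 (SE 0.524, adjusted p = 0.0217) from a mean of 0.48 CPM in control.

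Fads1 and Fads2 share the first steps of polyunsaturated fatty acid synthesis and are neighbours on chromosome 19, at a distance of 81.0 kb and on opposite strands. Fads1 was at 18.2, 24.8, 22.7 and 24.9 TPM in control libraries 1 to 4 and at 5.41, 8.06, 7.40 and 12.2 TPM in 4A1 KO libraries 1 to 4. Fads2 was at 54.0, 59.3, 53.1 and 54.8 TPM in control and at 3.42, 6.39, 4.16 and 11.8 TPM in 4A1 KO. The control values of Fads2 were close together, whereas its highest 4A1 KO value, that of library 4, was 3.40 times its lowest in CPM, although still far below every control. Fads1 fell by 1.40 on the log2 scale (SE 0.118, adjusted p = 3.08e-05), or 2.64-fold. Fads2 fell by 2.98 (SE 0.226, 95% interval -3.49 to -2.46, adjusted p = 2.12e-05), or 7.86-fold, and this was the lowest log2 fold change of the 8386 genes whose mean reached 10 CPM. With DESeq2 and normal shrinkage Fads2 was at only -1.59 and no longer came first, being less far from 0 than Scd2 (-1.75) and Elovl6 (-1.61). In the edgeR fit Scd2 was at position 28 and Elovl6 at position 86 of the 8386 genes. Among all 14218 genes tested, which include genes with few counts, Fads2 was at position 18.

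As with the Scd genes, the balance within the pair differed between genotypes. Fads1 held 25.3%, 29.5%, 29.9% and 31.3% of the summed TPM of Fads1 and Fads2 in control libraries 1 to 4 and 61.3%, 55.8%, 64.0% and 50.7% in 4A1 KO libraries 1 to 4. Its mean share was 29.0% ± 2.60 in control against 57.9% ± 5.88 in 4A1 KO (SD, n = 4), and the exact permutation test, two-sided, gave p = 0.0286 (adjusted p = 0.0286), again the smallest possible. Here too the exact p was 0.125 within pairs and 0.1 with replicates 2 to 4. Fads2 was the more abundant of the pair in every control library and the less abundant in every 4A1 KO library. The third gene of the cluster, Fads3, was called lower too, with a log2 fold change of -1.90 (SE 0.383, adjusted p = 0.00287), from 1.52 ± 0.436 CPM in control to 0.39 ± 0.188 in the knockout (SD over 3 libraries).

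**Figure D1:**
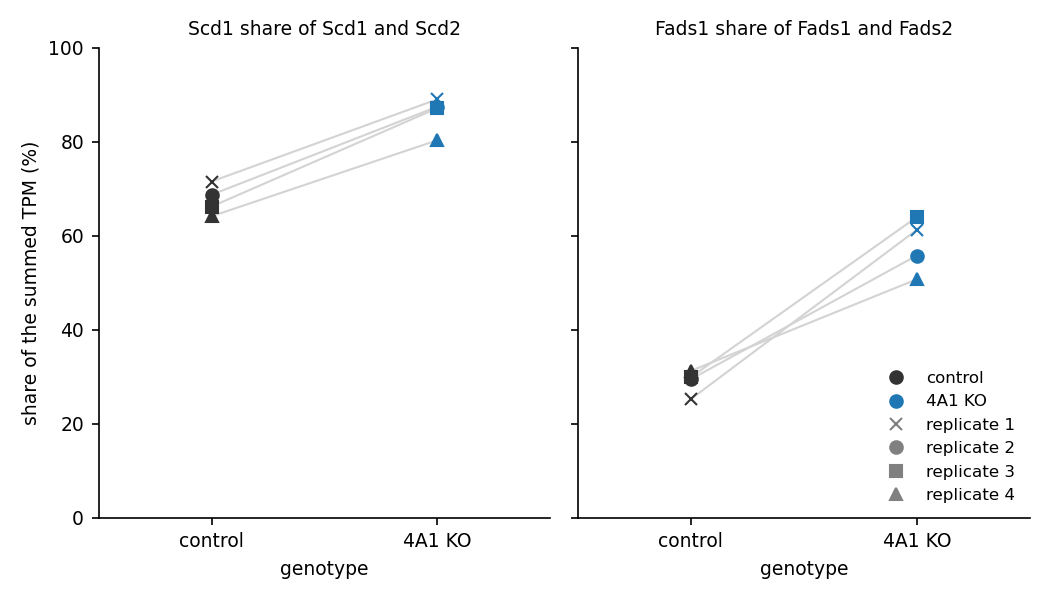
Share of Scd1 in the summed TPM of Scd1 and Scd2 (left) and of Fads1 in that of Fads1 and Fads2 (right), in percent, for every library, with grey lines joining libraries of the same number. Both shares are higher in every 4A1 KO library than in any control library, with means of 86.0% against 67.7% and of 57.9% against 29.0%.

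Dbi encodes the acyl-CoA binding protein, which carries long-chain acyl-CoA in the cytosol. It was at 176, 217, 158 and 168 TPM in control libraries and at 76.2, 86.7, 66.8 and 78.3 TPM in 4A1 KO libraries 1 to 4, with no overlap. Dbi fell by 1.22 on the log2 scale (SE 0.070, adjusted p = 1.02e-05), or 2.34-fold, and its pairs were the most alike of the called genes, since the 4A1 KO library held between 40.1% and 46.6% of the same-numbered control in all 4 pairs.

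**Figure D2:**
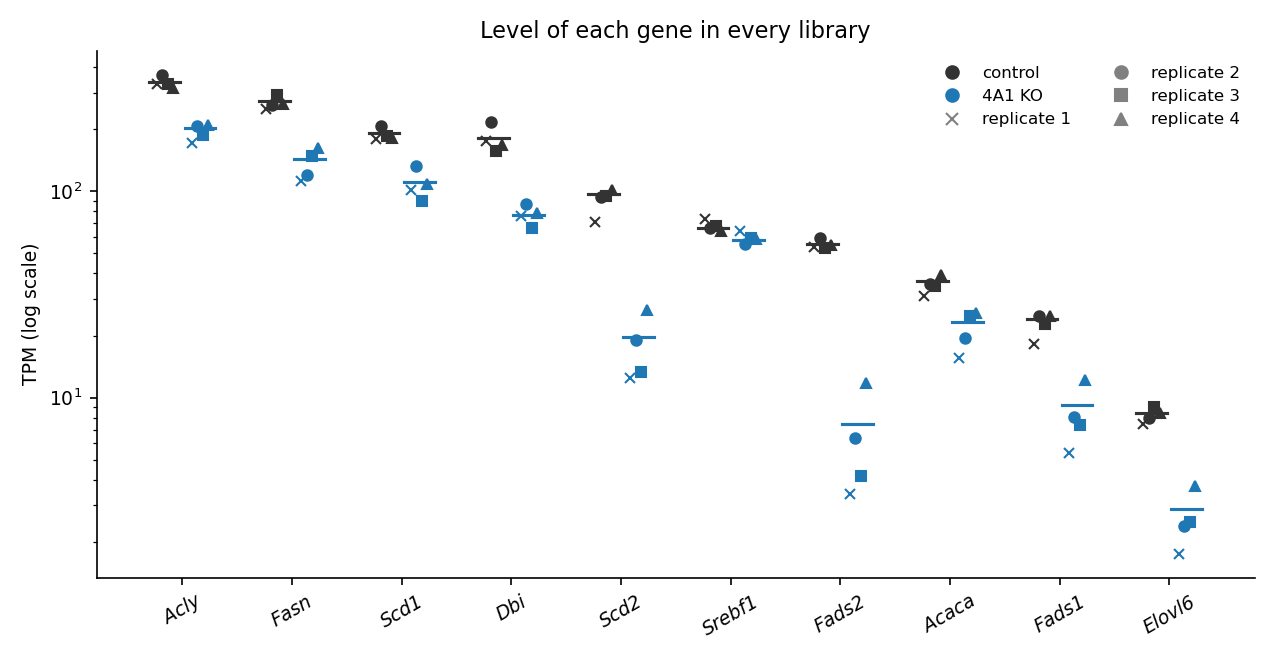
TPM (log scale) of the 10 genes in every library of control (dark) and 4A1 KO (blue), ordered by the control mean over 4 libraries, with a symbol for each replicate number and a horizontal line at the mean of replicates 2 to 4. The points of the 2 genotypes lie furthest apart for Fads2 and Scd2 and closest for Srebf1.

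Ordered by mean TPM over 4 libraries, the control cells had Acly (337 ± 22.2, SD), Fasn (268 ± 18.8), Scd1 (188 ± 13.2), Dbi (179.5 ± 25.8), Scd2 (90.4 ± 13.2), Srebf1 (68.1 ± 3.71), Fads2 (55.3 ± 2.80), Acaca (35.2 ± 3.34), Fads1 (22.7 ± 3.13) and Elovl6 (8.22 ± 0.663). The ranges of Scd1 and Dbi overlapped, as did those of Scd2 and Srebf1, so the order within these pairs is not resolved. In 4A1 KO cells the order was Acly (194 ± 17.8), Fasn (136 ± 23.3), Scd1 (108 ± 17.8), Dbi (77.0 ± 8.16), Srebf1 (59.5 ± 3.59), Acaca (21.4 ± 4.76), Scd2 (17.9 ± 6.56), Fads1 (8.26 ± 2.84), Fads2 (6.45 ± 3.80) and Elovl6 (2.59 ± 0.822). The ranges of Fasn and Scd1, of Acaca and Scd2, of Fads1 and Fads2, and of Fads2 and Elovl6 overlapped. Srebf1 came before Scd2 in 4A1 KO with no overlap, whereas their ranges overlapped in control. Together the 10 genes held 1192, 1343, 1252 and 1223 TPM in control libraries 1 to 4 and 565, 656, 606 and 699 TPM in 4A1 KO libraries 1 to 4, and between 0.327% and 0.355% of all counts in control beside 0.159% to 0.193% in 4A1 KO.

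**Figure D3:**
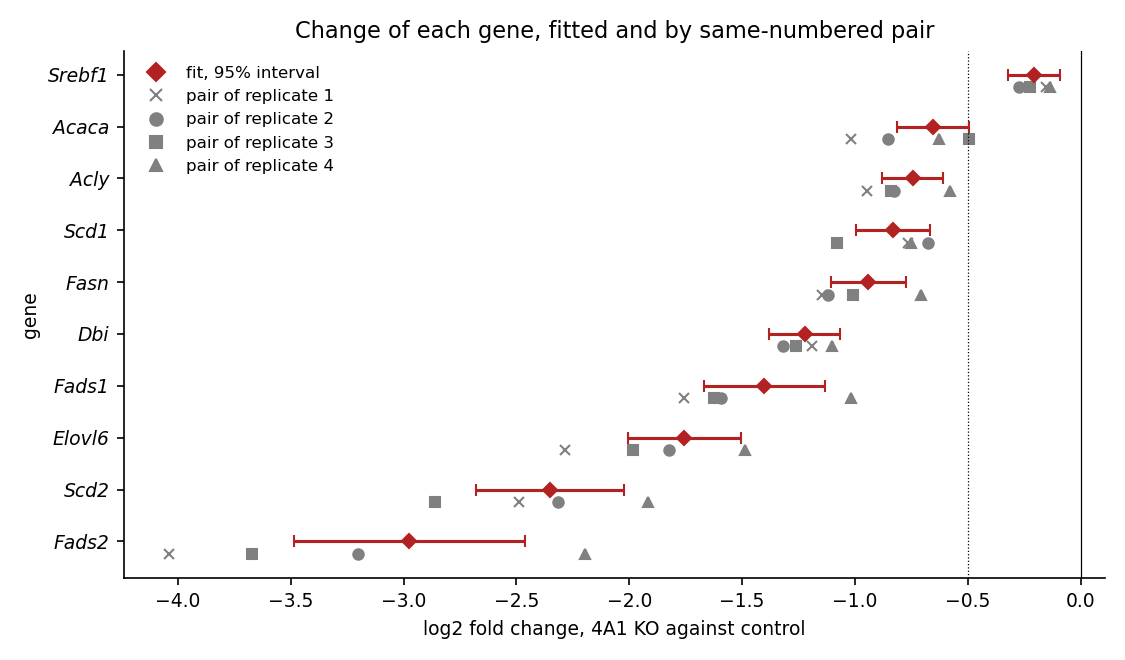
Log2 fold change of each gene in 4A1 KO against control. Red diamonds are the edgeR estimates from replicates 2 to 4 with 95% intervals, grey symbols are the differences in log2 CPM within each of the 4 same-numbered pairs, and the dotted line is the size threshold of -0.5. All pairs lie below 0, from -0.14 (Srebf1, pair 4) to -4.04 (Fads2, pair 1), and pair 4 lies nearest to 0 for most genes.

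The 4 pairs differed in the size of the fall. Pair 4, the females of batch B, showed the smallest fall for 8 of the 10 genes, and pair 1, the males of batch A, showed the largest for 6 of 10. Pair 1 is the replicate that had been removed for reduced viability, which cannot be told apart there from its sex and batch. For Fads2 the 4A1 KO library held 6.08%, 10.9%, 7.84% and 21.8% of the CPM of its same-numbered control in pairs 1 to 4. For Scd2 these values were 17.8%, 20.1%, 13.8% and 26.5%, and for Elovl6 they were 20.5%, 28.2%, 25.3% and 35.7%. The difference was larger in both male pairs than in both female pairs for 6 of the 10 genes, these 3 and Fads1, Acly and Scd1, and the reverse held for none. Within 4A1 KO, library 4 had the highest level of 6 of the 10 genes and the lowest of none. The shares of all genes with these orders of pairs and libraries were not computed. These counts therefore cannot be read as particular to the 10 genes. Library 4 also had the highest Eif4a1 of the 4 in CPM (691, beside 593, 557 and 635 in libraries 1 to 3). As a percentage of the same-numbered control, Eif4a1 was at 71.6%, 74.5%, 67.9% and 77.8% in CPM for pairs 1 to 4. In TPM these values were 73.1%, 75.1%, 72.4% and 74.2%, so pair 4 was not the highest there. The part of Eif4a1 in the pattern was not tested.

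A difference of the genotype effect between sexes or batches was tested in all 8 libraries with edgeR. For the effect in males minus that in females, Fads2 had a log2 difference of -1.19 (SE 0.298, unadjusted p = 0.00342), Scd2 of -0.56 (SE 0.158, unadjusted p = 0.00692) and Elovl6 of -0.46 (SE 0.183, unadjusted p = 0.0347). None passed after adjustment over all 14211 genes, where the adjusted p of every one of the 10 genes was 1. No gene in the table passed for sex, while 405 had an unadjusted p under 0.05. For batch B minus batch A, the lowest unadjusted p were those of Acaca, 0.00441 (log2 difference 0.38, SE 0.099), and Fasn, 0.0276 (log2 difference 0.28, SE 0.104). The adjusted p of all 10 was 0.999, and 1 gene in the table passed, while 610 had an unadjusted p under 0.05.

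With all 8 libraries in the fit, the same 9 genes were called lower, by 0.74 (Acaca) to 3.20 (Fads2) on the log2 scale, and Srebf1 was at -0.19 (adjusted p = 0.00418). On log2(TPM + 1), with limma, the same 9 were called lower too, beside 11.8% of the 12976 genes tested there, and Srebf1 was at -0.19 (adjusted p = 0.0273). The log2 fold changes on TPM and on counts differed most for Elovl6, at -1.31 and -1.76.

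The other genes of fatty acid and lipid metabolism were taken as lists by function. Of the 113 genes tested in 8 such lists, 24 were called lower and 7 higher, with a median log2 fold change of -0.13, beside 13.7% lower and 11.6% higher over all genes tested. The genes that supply acetyl-CoA, malonyl-CoA and NADPH came closest to the 10 genes, with 5 of 8 tested genes lower, none higher and a median of -0.86. Aacs, which makes acetoacetyl-CoA from acetoacetate, fell by 1.57 (SE 0.105, adjusted p = 1.53e-05), and Slc25a1, the mitochondrial citrate carrier upstream of Acly, by 0.64 on the log2 scale (SE 0.056, adjusted p = 3.59e-05).

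Among the genes of desaturation and its electron donors, 4 of 8 tested were lower and none higher, with a median of -0.62. The count was 2 when a mean of 1 CPM was required, which leaves out Scd4 and Fads3. Cyb5b, a cytochrome b5 of the outer mitochondrial membrane, fell by 0.76 (SE 0.055, adjusted p = 1.91e-05) and Cyb5r3, the reductase that passes electrons to cytochrome b5, by 0.81 (SE 0.074, adjusted p = 4.46e-05). Of the genes of elongation other than Elovl6, 2 of 8 tested were lower and 1 higher, with a median of 0.05, and over all genes tested these shares were 13.7% and 11.6%. The elongase Elovl5, which acts on the products of Fads2, fell by 0.60 (SE 0.059, adjusted p = 6.21e-05), the enoyl reductase Tecr fell by 0.87 (SE 0.087, adjusted p = 6.47e-05), and the dehydratase Hacd2 rose by 0.56 (SE 0.080, adjusted p = 4.53e-04).

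Mitochondrial fatty acid synthesis, a separate pathway that makes the precursor of lipoic acid, had 0 of 9 tested genes called in either direction by edgeR and a median of -0.04, with 5 of 9 at an unadjusted p under 0.05. The share of all genes under that unadjusted threshold was not computed. The other count settings called 0 of them too, except that 1 was called without replicate 2. The acyl-CoA synthetases, acyl-CoA binding proteins other than Dbi, and thioesterases had 4 of 13 lower and none higher, with Acsl3 (-1.14, SE 0.066, adjusted p = 1.03e-05) and Acsl4 (-0.75, SE 0.057, adjusted p = 2.22e-05), both of which activate long-chain fatty acids. Fatty acid uptake and oxidation had 5 of 25 lower and none higher, with 13.7% lower over all genes, among them Hadh (-0.60) and Cpt2 (-0.97), which act in mitochondrial beta-oxidation. Glycerolipid and phospholipid synthesis had 3 of 23 lower and 4 higher, near the 13.7% and 11.6% over all genes tested. Pcyt2 of phosphatidylethanolamine synthesis fell by 1.48 and the phosphatidate phosphatase Lpin1 by 1.22, while the acyltransferases Agpat1 and Dgat2 rose by 0.51 and 0.66.

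Of 19 tested genes of SREBP control and lipogenic regulation, 1 was lower and 2 higher, with a median of 0.14. The one that fell was Insig1, which retains SREBP proteins in the endoplasmic reticulum and is itself a target of them (log2 fold change -1.23, SE 0.068, adjusted p = 9.59e-06). Mlxip, a glucose-sensing transcription factor, rose by 0.61 and Prkaa2, a catalytic subunit of AMP-activated kinase, by 0.86, the latter from a mean of only 0.99 CPM. Srebf2, the paralog of Srebf1 that mainly drives sterol synthesis genes, was at -0.36 (adjusted p = 1.87e-04) and, like Srebf1, did not reach the size threshold. For comparison, all 19 tested genes of sterol synthesis were called lower, with a median of -1.51, for example Sqle (-1.45) and Fdps (-2.03). Without replicate 2, 18 of these 19 were called. Over all genes tested, 13.7% were lower and 11.6% higher.

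**Figure D4:**
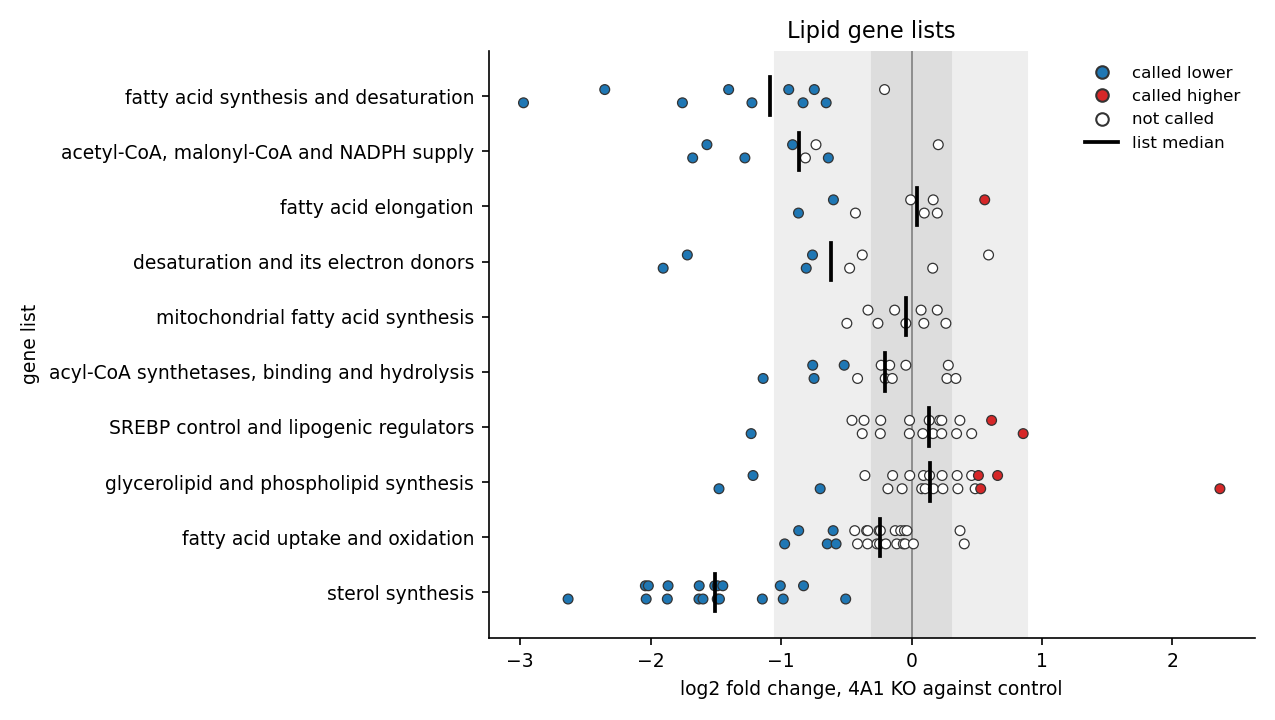
Log2 fold change in 4A1 KO against control of each tested gene in the 10 gene lists, with blue points for genes called lower, red for higher and white for neither, and a black bar at each list's median. Grey bands hold the middle 50% and 90% of all genes tested. The medians of the 10 genes described here (-1.08), of precursor supply (-0.86), of desaturation (-0.62) and of sterol synthesis (-1.51) lie to the left, and those of the other lists between -0.24 and 0.14.

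Srebf1, Acaca, Acly and Fasn are on chromosome 11, as is the targeted gene Eif4a1. In GRCm39 they lie at -9.44, 14.5, 30.8 and 51.1 Mb from it. Of the 276 tested genes within 10 Mb of Eif4a1, 14.1% were called lower, and of the 838 tested genes on the rest of the chromosome 16%. The member nearest to Eif4a1, Srebf1, was the one with the smallest change. An effect of the targeted locus on the genes of its chromosome was not tested. The other 6 genes are on chromosomes 1 (Dbi), 3 (Elovl6) and 19 (Scd1, Scd2, Fads1 and Fads2).

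**Figure D5:**
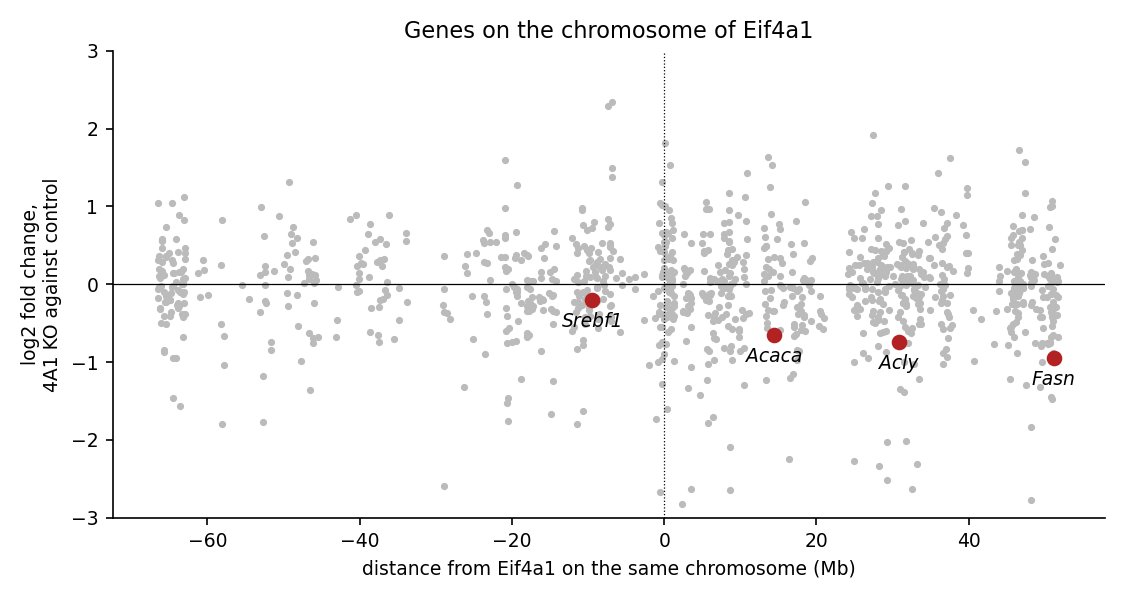
Log2 fold change of each tested gene on chromosome 11 by its distance from Eif4a1 in Mb, with the 4 lipid genes in red. The vertical axis runs from -3 to 3 and leaves out 2 genes. The falls of Acaca (-0.65), Acly (-0.75) and Fasn (-0.94) lie 14.5 to 51.1 Mb away.

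For each called gene, the gene outside the group with the most similar log2 CPM over the 8 libraries was looked up among 8369 genes whose mean reached 10 CPM. The libraries of the 2 genotypes form separate clusters for these genes, so Pearson's r (0.987 to 0.998) is given as a description of likeness only. The nearest gene was Gcat for Fads2, Gm49510 for Scd2, Ahsa1 for Elovl6, Tonsl for Fads1, Tmco4 for Dbi, Hmgcs1 for Fasn, Atp5pb for Scd1, Mmab for Acly and Gm21969 for Acaca. Hmgcs1 and Gcat fell by 1.87 and 1.73 on the log2 scale, while Ahsa1 and Atp5pb were at -0.47 and -0.34 and were not called, so a similar profile did not mean a fall of similar size.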

How the data were processed

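RNA-seq of 8 B cell libraries, 4 control and 4 4A1 KO, was analysed from 2 deposited tables. The authors trimmed the reads (Trim Galore 0.6.6), mapped them to GRCm39 with HISAT2 2.1.0 and counted strand-specific read pairs per gene with Seqmonk, isoforms merged, and deposited these counts without normalization. The TPM were calculated by the authors with StringTie 2.1.1 from the same alignments. The treatment of multi-mapped reads is not given in the sources used here. Genotype, sex and batch came from the labels.

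The counts of replicates 2 to 4 were tested in R 4.3.3 with edgeR 4.0.16 (TMM, filterByExpr by genotype, quasi-likelihood test, two-sided) with batch, sex and genotype in the model, with Benjamini-Hochberg adjustment over all genes tested. CPM use each library's plain total, without TMM. In these libraries batch and sex equal the replicate number as a block. The pairing rests on these labels, and same-numbered libraries deviated together from their genotype means (mean r across genes 0.51 and lowest 0.43 for same numbers, mean -0.25 for others). TPM were tested with limma 3.58.1 on log2(TPM + 1) over genes whose mean reached 1 TPM. Each library came from a different mouse, so p-values measure the spread between mice. Depth (at least 31727557 counts per library) put 152 or more counts behind each value of the 10 genes. Alternatives were other normalizations, DESeq2 1.42.0, edgeR's glmTreat, other filters and pseudocounts, no replicate block, all 8 libraries and leaving out each replicate. The code was tested on simulated data.

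Coordinates are from GENCODE M39, matched by identifier for 52647 of 53242 genes, and promoters are RefSeq windows. Copies were sought as exact matches of 50 bases in the genome. The 10 genes and the gene lists were chosen with earlier results of these data known. Named besides the 10 genes are the 2 called genes with the lowest adjusted p in each direction of each list, with ties in the adjusted p broken by the unadjusted p, the targeted gene, neighbours in the Scd and Fads clusters, Srebf2, the nearest gene by profile, Gm5182 and, beyond this rule, single marker genes. Srebf2, Gm5182 and these marker genes were picked after their values had been seen. The summed level of the B cell markers is not reported here.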

Additional observations from a re-analysis of the deposited data

Results flagged for a closer look

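One value stood apart from its group. The Scd2 level of control library 1, 212 CPM, lay below the 272, 272 and 281 CPM of control libraries 2 to 4. The gap to the nearest of the others was 0.857 of the range of the 4 libraries. By chance about 1 in 20 groups would show such a gap, which is 1.2 of the 24 groups examined. Control library 1 belongs to the replicate left out for reduced viability, and the log2 fold change of Scd2 was -2.35 without replicate 1 and -2.38 with it.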

How the results depend on the processing

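No result changed direction. The number of the 10 genes called lower was 9 in every setting of the counts and of the TPM but for edgeR's glmTreat against a log2 fold change of 0.5, where it was 8. There Acaca (log2 fold change -0.65) was lost with an adjusted p of 0.0597 (1.39e-14 to 0.0597 over its count settings), all genes called fell from 3596 to 1627, the percentage of genes called lower from 13.7 to 6.94, and calls in the 8 other lipid lists from 31 to 17. Without each of replicates 2 to 4, all genes called ranged from 3083 to 3821 and the Fads2 log2 fold change from -3.42 (without replicate 4) to -2.67 (without replicate 3). DESeq2 with normal shrinkage gave the smallest falls of Fads2 (-1.59) and Scd2 (-1.75). Srebf1 was never called, with values from -0.24 to -0.17 on the counts and an adjusted p of up to 0.132 on TPM.

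The difference in share between genotypes was 18.3 percentage points for Scd1 and 29.0 for Fads1. With replicates 2 to 4 it was 18.6 and 26.6 points, and without each replicate 17.5 to 19.1 and 26.6 to 32.1 points, with an exact p of 0.1, the lowest that 3 against 3 allow. With the replicate block, as sign changes within the 4 pairs, the exact p was 0.125, the lowest that 4 pairs allow. Without the replicate block, 3000 genes were called and no call among the 10 genes changed. In 6 cases the count of calls in a single list moved by over 1.5 times, as for desaturation and its electron donors, with 2 calls instead of 4 when a mean of 1 CPM was required, which removes Scd4 and Fads3 from the test. The cause of the other differences was not tested.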
